A study of Mus musculus with 36 samples.

Results

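The 4 D-box factor genes Dbp, Tef, Hlf and Nfil3 were followed across 11 groups of mouse heart libraries. They were chosen by name, with earlier results of these data known, and each was found under its NCBI Gene ID among the 18762 genes of the tables. All 4 passed the filter on low values, as did 11790 genes in all, by reaching 1 FPKM in 3 or more libraries. FPKM is the number of reads per kilobase of transcript and per 1000000 reads.

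DBP, TEF and HLF are the PAR bZIP proteins, transcription factors with a basic leucine zipper and a region rich in proline and acidic residues, and they activate genes through a DNA element called the D-box. NFIL3, also known as E4BP4, is a basic leucine zipper protein that binds the same element and represses from it. In the circadian clock, Dbp is a direct target of CLOCK and BMAL1, which act through E-boxes, whereas Nfil3 is a target of the ROR activators and the REV-ERB repressors, which share another element. The ratio of activator to repressor at D-boxes is thought to help set the time of day at which genes carrying the element are transcribed.

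The animals were C57BL/6 mice of 8 weeks on normal chow, kept in 12 h of light and 12 h of dark, and whole hearts were taken at zeitgeber time (ZT, hours after lights on) 2, 6, 10, 14, 18 and 22. Both genotypes carried the allele written Reverb fl/fl. The WT-labelled hearts had this allele alone and the KO-labelled hearts were written Reverb fl/fl /MHC+, where MHC in such crosses usually names the alpha myosin heavy chain promoter, used to express Cre recombinase in cardiomyocytes. The labels name neither the floxed Rev-erb gene nor its deleted exons, and no group had the MHC transgene without the floxed allele, so an effect of the transgene itself cannot be told apart from one of Rev-erb loss. Each group held 3 libraries, giving 18 WT-labelled libraries at 6 times and 15 KO-labelled libraries at 5 times. KO at ZT22 was not analysed here, because its tables hold counts of the KO ZT10 libraries. The labels do not say that the libraries came from separate animals, and the p-values therefore measure only how far these samples spread, which may be technical.

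Nr1d1, which encodes REV-ERB alpha, read 9.29 to 87.7 FPKM over the 18 WT-labelled libraries and 192 to 317 FPKM over the 15 KO-labelled libraries. The gene-level value was thus higher in KO-labelled hearts. With the floxed gene and the deleted exons unnamed it cannot check the deletion, so the genotypes are called by their labels throughout. Depth, recovered from the steps of low values, was 13.6 to 15.9 M reads (M, 1000000) in the WT-labelled and 14.96 to 17.57 M in the KO-labelled libraries. The 7 cardiomyocyte markers summed to 45032 to 51793 FPKM in the WT-labelled and 45777 to 51463 FPKM in the KO-labelled libraries, with 3 of 7 called higher in KO-labelled hearts (Tnnt2, Actc1 and Myl2) and 3 lower (Myh6, Tnni3 and Ryr2). The 4 lymphocyte markers were all below 1 FPKM in every library. Among markers of other cells, 6 of 8 fibroblast genes were called higher in KO-labelled hearts (summed 412 to 503 against 407 to 583 FPKM), where 33.2% of all tested genes were called higher. The smooth muscle and pericyte sum ran from 255 to 418 against 335 to 581 FPKM, with 2 of 7 genes called higher. Of these, Acta2 went from 95.8 to 245 FPKM, whereas Myh11, Tagln, Rgs5, Pdgfrb and Kcnj8 had log2 differences between -0.10 and 0.02 that did not pass. Red blood cell genes summed to 2982 to 6282 against 2695 to 6121 FPKM, with 0 of 5 called for the mean effect and 5 of 5 for the interaction of genotype with time (5.37% of all tested genes). Of 7 endothelial genes, 2 were called higher and 2 lower, and of 7 macrophage genes 2 were called higher, where 23.4% of all tested genes were called lower. Of the 5 atrial markers, Myl7, Sln and Bmp10 were below 1 FPKM in every library, so they do not show atria in the tissue called whole heart. The 2 tested were both called higher in KO-labelled hearts. Myl4 went from 2.54 to 3.23 FPKM (0.29 ± 0.10, limma adjusted p = 0.0124). Nppa, a natriuretic peptide gene, averaged 286 FPKM in WT-labelled and 2819 FPKM in KO-labelled hearts. The part of these markers and of depth in the results on the D-box genes was not tested. In bulk tissue, fewer cells of a type and less RNA per cell cannot be told apart.

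Dbp, the PAR bZIP gene with the widest daily swing in WT-labelled hearts, lies at chr7:45705100-45710203 on the plus strand of mm10 (NCBI Gene 13170). In WT-labelled hearts its 3 libraries read 6.76, 6.49 and 5.73 FPKM at ZT2, 57.7, 60.2 and 54.7 FPKM at ZT6, and 118, 124 and 110 FPKM at ZT10. They then read 81.5, 61.1 and 49.7 FPKM at ZT14, 16.02, 23.12 and 20.67 FPKM at ZT18, and 16.41, 14.97 and 17.25 FPKM at ZT22. Dbp was thus high in the late light phase and low around the end of the dark phase and the start of light, and the mean at ZT10 was 18.5 times that at ZT2. In KO-labelled hearts the libraries read 94.1, 96.1 and 97.4 FPKM at ZT2, 137, 122 and 126 FPKM at ZT6, and 139, 152 and 129 FPKM at ZT10. They read 133, 104 and 112 FPKM at ZT14 and 93.1, 98.5 and 100.1 FPKM at ZT18. The highest group was again ZT10 and the lowest ZT2, but their means differed by 1.46 times, and no KO-labelled library fell below 93.1 FPKM. In the order of the 11 group means, KO ZT10, KO ZT6, WT ZT10 and KO ZT14 led, each overlapping the next in range, and WT ZT2 at 6.33 ± 0.53 FPKM (SD, n = 3) stood last and apart from all others. Of the 10 pairs of neighbours in that order, 6 overlapped. About 130 reads stood behind the lowest Dbp value and 3555 behind the highest in KO-labelled hearts.

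Dbp shares 737 bases with Sphk2, a sphingosine kinase gene on the opposite strand, in the GENCODE annotation (release M21) of the same assembly, and no stranded counting is stated, which leaves the reads there unassigned between the pair. Sphk2 itself read 6.48 to 14.6 FPKM in WT-labelled and 6.26 to 10.3 FPKM in KO-labelled hearts. Its mean effect was a fall of -0.34 ± 0.05 on the log2 scale (limma adjusted p = 5.85e-07), opposite in direction to that of Dbp.

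Tef, the thyrotroph embryonic factor gene, lies at chr15:81802673-81826863 on the plus strand (NCBI Gene 21685) and overlaps the antisense gene Gm17597 by 193 bases. Its 2 RefSeq start sites (GRCm38.p6, the assembly of mm10) each have a CACGTG E-box, the palindrome bound by CLOCK and BMAL1, in the 250 bases before the start. The windows are shown because the E-box is the input the PAR bZIP genes are known for, with the E-box in capitals. It begins 127 bases before the start in the window at chr15:81802423-81802722 and 138 bases before it in the window at chr15:81811164-81811463, both on the plus strand.
Tef start 1: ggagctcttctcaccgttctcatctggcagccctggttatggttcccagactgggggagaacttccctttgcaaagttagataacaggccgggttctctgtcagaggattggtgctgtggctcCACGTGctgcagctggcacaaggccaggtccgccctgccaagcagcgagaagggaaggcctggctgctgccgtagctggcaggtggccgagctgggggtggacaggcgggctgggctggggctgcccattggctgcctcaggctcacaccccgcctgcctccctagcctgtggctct
Tef start 2: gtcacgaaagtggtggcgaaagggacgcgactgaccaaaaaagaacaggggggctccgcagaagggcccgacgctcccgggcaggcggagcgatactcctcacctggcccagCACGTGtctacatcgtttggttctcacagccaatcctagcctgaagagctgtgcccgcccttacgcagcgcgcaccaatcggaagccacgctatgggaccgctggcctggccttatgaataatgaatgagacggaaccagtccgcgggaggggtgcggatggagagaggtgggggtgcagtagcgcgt
CACGTG, searched on both strands, was found in 7.15% of 32851 RefSeq promoter windows of this length. A match is a description of the letters and not evidence of binding.

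WT-labelled hearts read 23.3, 28.8 and 29.2 FPKM of Tef at ZT2, 46.6, 48.8 and 40.7 FPKM at ZT6, and 60.3, 58.9 and 56.2 FPKM at ZT10. They read 68.2, 68.0 and 64.1 FPKM at ZT14, 46.6, 50.3 and 44.1 FPKM at ZT18, and 42.2, 42.5 and 40.6 FPKM at ZT22. The peak came at ZT14, 4 h after that of Dbp, and stood 2.46 times above the ZT2 trough. KO-labelled hearts read 44.7, 46.8 and 48.7 FPKM at ZT2, 51.6, 53.3 and 52.8 FPKM at ZT6, and 60.6, 59.8 and 60.4 FPKM at ZT10. They read 62.4, 66.3 and 63.2 FPKM at ZT14 and 54.3, 54.1 and 54.1 FPKM at ZT18. ZT14 and ZT2 were again the highest and lowest groups, 1.37 times apart. The ZT14 libraries of the 2 genotypes overlapped at the top of the order, as did those of ZT10 below them, and WT ZT2 stood alone at the bottom with 27.1 ± 3.3 FPKM (SD, n = 3). In all, 5 of 10 neighbouring pairs overlapped.

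Hlf, the hepatic leukemia factor gene, lies at chr11:90336535-90390917 on the minus strand (NCBI Gene 217082). It had the lowest FPKM of the 3 activators in all 11 groups. WT-labelled hearts read 4.47, 5.16 and 5.46 FPKM at ZT2, 5.08, 5.56 and 5.74 FPKM at ZT6, and 9.09, 9.26 and 9.37 FPKM at ZT10. They read 11.9, 10.4 and 9.95 FPKM at ZT14, 6.04, 8.75 and 6.81 FPKM at ZT18, and 7.12, 6.94 and 6.53 FPKM at ZT22. ZT14 was highest and ZT2 lowest, with overlap between ZT2 and ZT6, and the peak mean was 2.13 times the trough mean. KO-labelled hearts read 12.7, 11.3 and 11.1 FPKM at ZT2, 10.53, 11.50 and 11.01 FPKM at ZT6, and 13.7, 14.1 and 13.1 FPKM at ZT10. They read 15.5, 17.1 and 16.4 FPKM at ZT14 and 10.6, 12.3 and 10.7 FPKM at ZT18. The peak stayed at ZT14 and the trough lay at ZT6, 1.48 times lower. All 5 KO-labelled group means stood above all 6 WT-labelled ones, although the range of WT ZT14 overlapped those of KO ZT2, ZT6 and ZT18. The share of tested genes with that order of means was not counted. About 349 to 1468 reads stood behind the Hlf values.

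Nfil3, the repressor of the set, lies at chr13:52967209-52982878 on the minus strand (NCBI Gene 18030). Its RefSeq window at chr13:52980990-52981289, minus strand, is shown because Nfil3 is the D-box gene known as a REV-ERB target, and the letters TAGGTCA, an extended form of the AGGTCA sequence recognised by ROR and REV-ERB proteins, lie in it on the opposite strand. They are printed in capitals as their reverse complement and begin 12 bases before the RefSeq start of this window, which lies 1839 bases inside the 5′ end of the gene interval above.
Nfil3: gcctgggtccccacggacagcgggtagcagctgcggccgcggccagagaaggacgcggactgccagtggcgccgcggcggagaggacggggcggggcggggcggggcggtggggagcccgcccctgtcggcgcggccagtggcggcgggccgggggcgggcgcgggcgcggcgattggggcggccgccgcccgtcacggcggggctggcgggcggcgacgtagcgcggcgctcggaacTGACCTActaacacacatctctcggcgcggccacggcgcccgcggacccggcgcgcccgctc
TAGGTCA was found in 2.61% and AGGTCA, which lies inside it, in 16.3% of the 32851 windows on either strand. The other searched motifs were the D-box forms TTATGTAA (0.938% of windows) and TTACGTAA (0.119%) and the cAMP response element TGACGTCA (1.79%). The Hlf window held no CACGTG and had TGACGTCA beginning 9 bases before the start, and in the single window of Dbp none of the 6 motifs was found. Of the 3 PAR bZIP genes only Tef thus had the E-box in these windows, which says nothing of sequence outside them.

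Nfil3 in WT-labelled hearts read 31.7, 22.6 and 26.8 FPKM at ZT2, 4.93, 5.38 and 5.50 FPKM at ZT6, and 3.68, 3.96 and 4.56 FPKM at ZT10. It read 5.67, 6.46 and 6.93 FPKM at ZT14, 21.1, 16.9 and 19.1 FPKM at ZT18, and 12.8, 14.3 and 12.2 FPKM at ZT22. Its high and low times were the reverse of those of Dbp, with a mean 6.64 times higher at ZT2 than at ZT10, and the ZT22 libraries lay below both ZT18 and ZT2 without overlap. KO-labelled hearts read 50.8, 43.4 and 47.2 FPKM at ZT2, 46.2, 40.7 and 44.7 FPKM at ZT6, and 37.0, 40.3 and 35.5 FPKM at ZT10. They read 39.8, 37.1 and 38.1 FPKM at ZT14 and 41.1, 46.9 and 46.1 FPKM at ZT18. The same times were highest and lowest, 1.25 times apart, and the lowest KO-labelled library at 35.5 FPKM exceeded the highest WT-labelled library at 31.7 FPKM. The share of tested genes with such a separation over all libraries was not counted. All 6 WT-labelled groups were separate from their neighbours in the order of levels, and 3 of 10 neighbouring pairs overlapped, all among KO-labelled groups.

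**Figure D1:**
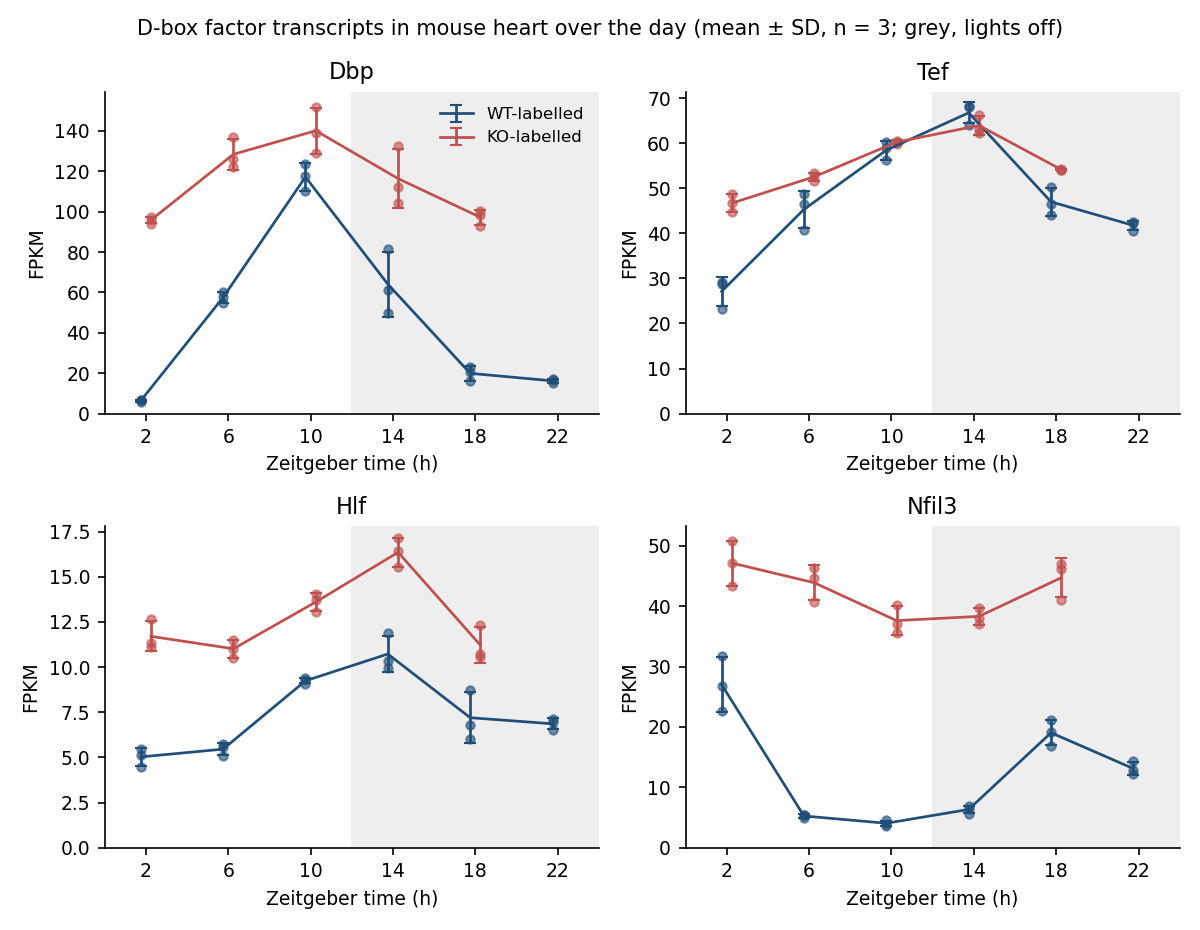
FPKM of Dbp, Tef, Hlf and Nfil3 against zeitgeber time in hours, 1 panel per gene, with a point per library, lines through the group means and bars of ± SD (n = 3), and the dark phase in grey. The KO-labelled points lie above the WT-labelled points at all 5 shared times for Dbp, Hlf and Nfil3, while those of Tef overlap at ZT10 and ZT14.

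The 2 genotypes were then compared over the 5 shared times on the log2(FPKM + 1) scale, which understates the change of low genes. All 4 D-box genes were higher in KO-labelled hearts by the mean of the 5 differences, against a background of 33.2% of all tested genes called higher (limma, Benjamini-Hochberg adjusted p under 0.05). The repressor Nfil3 rose most, by 2.03 ± 0.04 (SE, limma adjusted p = 1.44e-24), followed by Dbp with 1.65 ± 0.05 (2.16e-20), Hlf with 0.73 ± 0.04 (1.38e-15) and Tef with 0.23 ± 0.03 (5.17e-08). The median over all tested genes was 0.02.

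The time at which the genotypes differed was not the same for the activator Dbp and the repressor Nfil3. For Dbp the KO-labelled mean was 15.2 times the WT-labelled mean at ZT2, 2.23 times at ZT6, 1.20 times at ZT10, 1.82 times at ZT14 and 4.88 times at ZT18. The log2 difference of 3.73 ± 0.12 at ZT2 had the smallest p of the 11790 genes tested at that time (limma adjusted p = 9.48e-19). At ZT10, the WT peak, the difference of 0.25 did not pass (limma adjusted p = 0.118), although the 3 KO-labelled libraries lay above the 3 WT-labelled ones. Its 95% interval of 0.01 to 0.50 is not adjusted for the number of genes tested. On the ratio scale Nfil3 differed most at ZT10, where Dbp differed least: its KO-labelled mean was 1.74 times the WT-labelled mean at ZT2, 8.32 times at ZT6, 9.24 times at ZT10, 6.03 times at ZT14 and 2.35 times at ZT18. The log2 difference at ZT10 was 2.93 ± 0.10 (limma adjusted p = 1.45e-18). In FPKM the Nfil3 difference was largest at ZT6, with 38.6 against 33.5 at ZT10.

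Hlf was 2.33, 2.02, 1.47, 1.52 and 1.56 times higher in KO-labelled hearts at ZT2, ZT6, ZT10, ZT14 and ZT18. All 5 differences passed the limma threshold, from 1.08 ± 0.09 at ZT2 to 0.51 ± 0.09 at ZT10. In FPKM its differences were 6.67, 5.55, 4.36, 5.63 and 4.01 at the same times. For Tef the ratio was 1.72 at ZT2, where the log2 difference was 0.77 ± 0.06 (limma adjusted p = 2.42e-10). It was 1.16 at ZT6 and 1.15 at ZT18, with log2 differences of 0.21 (limma adjusted p = 0.0107) and 0.20 (limma adjusted p = 0.0154). Those calls each rested on a library, since the ZT6 difference was 0.14 (limma adjusted p = 0.111) without WT ZT6 replicate 3 and the ZT18 difference 0.16 (0.0936) without WT ZT18 replicate 3. At ZT10 and ZT14 Tef had ratios of 1.03 and 0.958 and did not pass (limma adjusted p = 0.671 and 0.515, unadjusted log2 intervals -0.09 to 0.17 and -0.19 to 0.07).

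At each time the background of tested genes called higher in KO-labelled hearts was 18.6% at ZT2, 19.1% at ZT6, 14.3% at ZT10, 19.2% at ZT14 and 17.7% at ZT18. Against it, 4 of 4 D-box genes were called higher at ZT2, ZT6 and ZT18, and 2 of 4, Hlf and Nfil3, at ZT10. At ZT14 the 3 called were Dbp, Hlf and Nfil3. By range alone, 4 of 4 D-box genes lay higher in KO-labelled hearts at ZT2, ZT6 and ZT18 and 3 of 4, without Tef, at ZT10 and ZT14. The share of tested genes whose KO-labelled range lay wholly above the WT-labelled range was 22.1% at ZT2, 28% at ZT6, 20.1% at ZT10, 26.3% at ZT14 and 24.1% at ZT18.

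**Figure D2:**
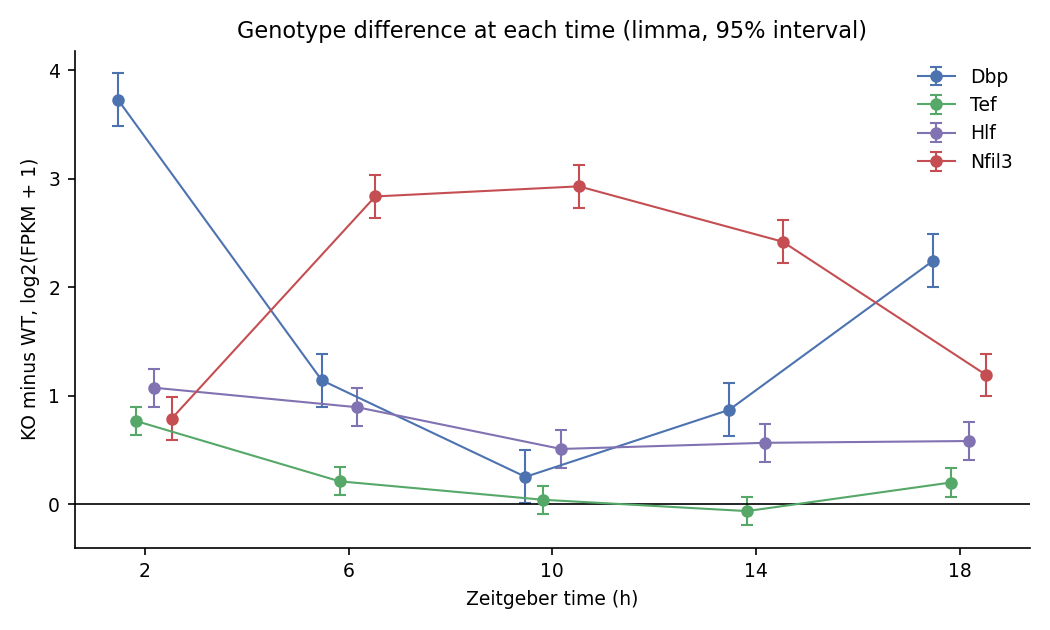
KO-labelled minus WT-labelled difference in log2(FPKM + 1) against zeitgeber time in hours for each of the 4 genes, with the unadjusted limma 95% interval as bars and points shifted sideways for legibility. Dbp is highest at ZT2 with 3.73 and lowest at ZT10 with 0.25, while Nfil3 is lowest at ZT2 with 0.79 and highest at ZT10 with 2.93.

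Whether the genotype difference varied over the day was tested directly, as the genotype by time interaction, which was called for 5.37% of tested genes. All 4 D-box genes passed. The 5 log2 differences of Dbp spanned 3.47 (limma adjusted p = 2.82e-13) and those of Nfil3 spanned 2.14 (limma adjusted p = 2.16e-12), the smallest and second smallest p of 11790 genes. Tef, with a span of 0.83, ranked 11 (limma adjusted p = 7.5e-06), and Hlf passed with a span of 0.56 (limma adjusted p = 0.0105). In FPKM without the log, an alternative added after seeing the data, the Hlf span of 2.66 FPKM did not pass (limma adjusted p = 0.203). The background count moved from 633 genes to 964 without WT ZT2 replicate 1 and to 411 without KO ZT18 replicate 3, and the 4 calls held in both.

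Daily variation within each genotype was tested next. Time of day was called for all 4 genes in WT-labelled hearts, where 58.2% of tested genes passed, and for all 4 in KO-labelled hearts, where 45.7% passed. In WT-labelled hearts Dbp (limma adjusted p = 5.6e-19) and Nfil3 (limma adjusted p = 3.33e-17) had the smallest p of the set. In KO-labelled hearts the adjusted p was 2.91e-05 for Tef, 5.46e-05 for Hlf, 0.00139 for Dbp and 0.0225 for Nfil3 (limma). The last call was lost without KO ZT2 replicate 1 (limma adjusted p = 0.0587) or KO ZT10 replicate 3 (0.0579).

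A cosine of 24 h period was fitted per genotype to give an amplitude, the distance from the mean to the peak in log2 units, and a peak time. In WT-labelled hearts all 4 genes were called rhythmic, as were 38.6% of tested genes, and Dbp had the largest amplitude of all 11790, 1.76 ± 0.14 with a peak at ZT 11.03 ± 0.31 (SE, limma adjusted p = 7.41e-10). Tef peaked at ZT 13.1 ± 0.3 with an amplitude of 0.53 ± 0.05 and Hlf at ZT 13.9 ± 0.5 with 0.44 ± 0.06. Nfil3 peaked at ZT 22.3 ± 0.4 with 1.09 ± 0.12. The fitted peaks of the activators lay between late light and early dark, and peak times were not tested against each other. The fitted peak of the repressor fell near the end of the dark phase, although its highest group mean was at ZT2.

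In KO-labelled hearts, where 26.9% of tested genes were called rhythmic, Tef had a called rhythm with an amplitude of 0.23 ± 0.05 (limma adjusted p = 0.00603) and Hlf one of 0.22 ± 0.07 (limma adjusted p = 0.0336). The Hlf call was lost without any of the 3 KO ZT14 libraries, the amplitude then being 0.21, 0.19 and 0.20 (limma adjusted p = 0.0665, 0.0879 and 0.0777). Dbp had 0.35 ± 0.18 (limma adjusted p = 0.303) and Nfil3 0.19 ± 0.16 (limma adjusted p = 0.577), neither of which passed the cosine test. The genotypes share an estimate of spread in this fit, so these SE also depend on the WT-labelled libraries. With WT ZT22 left out, the same amplitudes had SE of 0.12 for Dbp (limma adjusted p = 0.0599) and 0.08 for Nfil3 (0.139). Neither passed there.

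The difference of the 2 cosines was called for 1.09% of tested genes, and for 0.729% with the smaller amplitude in KO-labelled hearts. Dbp passed with an amplitude difference of -1.41 ± 0.23 (limma adjusted p = 0.00183). Tef with -0.30 ± 0.07 and Nfil3 with -0.90 ± 0.20 passed narrowly (both limma adjusted p = 0.0435) and lost the call in 22 and 25 of the 33 fits that each left out a library, over which the limma adjusted p ranged from 0.0233 to 0.101 for Tef and from 0.0149 to 0.0874 for Nfil3. Hlf with -0.22 ± 0.09 did not pass (limma adjusted p = 0.265). With WT ZT22 left out, so that both genotypes had the same 5 times, the differences were -1.92 for Dbp (limma adjusted p = 1.66e-08), -0.41 for Tef (0.00012), -1.39 for Nfil3 (1.66e-08) and -0.29 for Hlf (0.176).

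**Figure D3:**
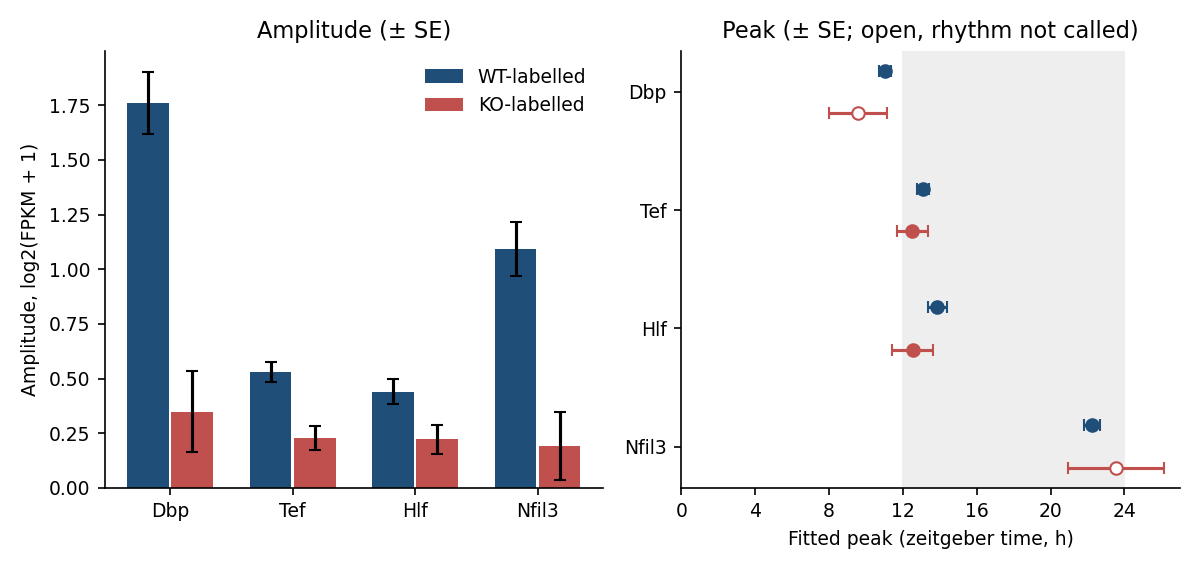
Left, amplitude of the fitted 24 h cosine in log2(FPKM + 1) with ± SE for each gene and genotype. Right, fitted peak in zeitgeber hours with ± SE, open where the rhythm was not called, which are Dbp and Nfil3 in KO-labelled hearts. The amplitude of Dbp is 1.76 in WT-labelled and 0.35 in KO-labelled hearts and that of Nfil3 is 1.09 and 0.19.

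Because activators and repressor share an element, the balance of their transcripts was described in each library, with no test since it is a score over the chosen genes. These libraries do not measure the proteins or their binding to the element. The log2 ratio of Dbp + 1 to Nfil3 + 1, in FPKM, was -1.93 ± 0.23 at ZT2, 3.22 ± 0.11 at ZT6, 4.55 ± 0.19 at ZT10, 3.12 ± 0.48 at ZT14, 0.05 ± 0.41 at ZT18 and 0.29 ± 0.21 at ZT22 in WT-labelled hearts (SD, n = 3). In KO-labelled hearts it was 1.01 ± 0.13, 1.53 ± 0.04, 1.87 ± 0.03, 1.57 ± 0.13 and 1.11 ± 0.05 from ZT2 to ZT18. The 15 KO-labelled libraries lay between 0.88 and 1.89, inside the WT-labelled range of -2.07 to 4.66: above the WT-labelled values at ZT2 and ZT18 and below them at ZT6, ZT10 and ZT14.

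The summed FPKM of Dbp, Tef and Hlf averaged 38.5 at ZT2 and 185 at ZT10 in WT-labelled hearts, against 154 and 214 in KO-labelled hearts. Dbp made up 16.6% of that sum at ZT2 and 63.4% at ZT10 in WT-labelled hearts, and between 59.0% and 66.8% in the KO-labelled group means. By group mean, Tef was the largest part of the sum in WT-labelled hearts at ZT2 (70.3%), ZT14 (47.6%), ZT18 (63.6%) and ZT22 (64.4%). At ZT14 its range overlapped that of Dbp, which averaged 44.8%. In KO-labelled hearts Tef made up 30.3% at ZT2.

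**Figure D4:**
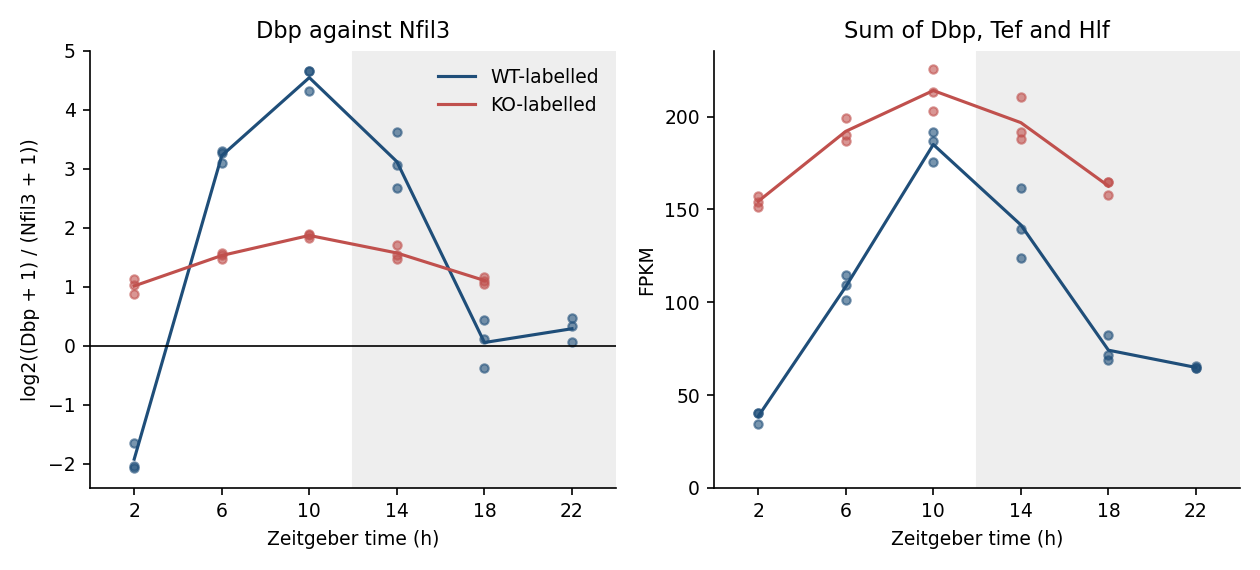
Left, log2 ratio of (Dbp + 1) to (Nfil3 + 1) in FPKM against zeitgeber time in hours; right, the summed FPKM of Dbp, Tef and Hlf. Points are libraries, lines join group means and the dark phase is grey. The KO-labelled ratios lie between 0.88 and 1.89, while the WT-labelled ratios run from -2.07 to 4.66.

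The genes around the D-box factors were described from lists of genes chosen by name. The clock inputs are regulators that act on E-boxes or on the ROR and REV-ERB element. Of 12 described and tested, 9 were called higher and 1, Rora, lower in KO-labelled hearts over the 5 times, with a median of 0.40 against 0.02 over all genes (background 33.2% higher and 23.4% lower). Arntl, which encodes BMAL1, rose from 5.10 to 27.8 FPKM (2.61 ± 0.06, limma adjusted p = 3.32e-23). Nr1d1 rose from 41.3 to 236 FPKM (2.75 ± 0.07) and Npas2, a CLOCK paralogue, from 1.19 to 6.36 FPKM (1.78 ± 0.05). The smallest called effects were those of Bhlhe40 and Nr1d2, both 0.17, and the repressors Per1 and Per2, with 0.12 and 0.10, did not pass. The interaction was called for 9 of the 12, against 5.37% of all tested genes.

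Clock genes known to carry D-boxes numbered 9, of which Rorb was not tested and 6 were also on the first list. Of the 8 tested, 4 were called higher (Nr1d1, Ciart, Cry1 and Nr1d2) and 1 lower (Rora, -0.22 ± 0.03), with a median of 0.14, beside 33.2% higher and 23.4% lower over all tested genes. Ciart, which encodes the repressor CHRONO, rose from 7.09 to 23.5 FPKM (1.90 ± 0.08) and Cry1, a cryptochrome repressor, from 6.81 to 13.0 FPKM (0.86 ± 0.03). The period gene Per3 had a mean effect of 0.02 that did not pass (limma adjusted p = 0.748), yet its differences over the day spanned 0.95 (interaction, limma adjusted p = 0.000638). All 8 were called rhythmic in WT-labelled hearts (38.6% of all tested genes) and 6 of 8 in KO-labelled hearts (26.9%). The cosines differed for 3 of 8 (1.09% of all tested genes), namely Per3, Nr1d1 and Nr1d2, each with the smaller amplitude in KO-labelled hearts.

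Of 13 genes reported as targets of the D-box factors, mostly from liver, 7 reached the filter. Of these, 0 were called higher and 4 lower, with a median of -0.08, where 33.2% of all tested genes were called higher and 23.4% lower. Acot3, an acyl-CoA thioesterase gene, fell from 1.06 to 0.289 FPKM (-0.67 ± 0.05). No KO-labelled library exceeded 0.58 FPKM of Acot3, so it passed the filter only through the WT-labelled libraries, where it is high, and its call is no support for the list. Por, the cytochrome P450 reductase gene, fell from 24.9 to 21.1 FPKM (-0.22 ± 0.03) and Acot2 from 64.5 to 57.9 FPKM (-0.16 ± 0.03). Abcb1a, a drug efflux pump gene, was lower by a small margin (-0.08 ± 0.03, limma adjusted p = 0.0297). Acot2, Acot3 and Acot4 are closely similar copies, so counting may have split their reads, and under quantile normalization Acot4 was also called lower. Fgf21, a hormone gene, averaged 0.057 FPKM in WT-labelled and 0.302 FPKM in KO-labelled hearts and was below the filter.

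The C/EBP proteins are basic leucine zipper factors whose preferred element resembles the D-box. Of 5 tested, Cebpb was called higher (0.36 ± 0.10, limma adjusted p = 0.00198) and Ddit3, which encodes the stress factor CHOP, lower (-0.33 ± 0.05, limma adjusted p = 2.77e-06), with a median of -0.03. Over all tested genes 33.2% were called higher and 23.4% lower, so 1 of 5 each way does not stand above the background. The interaction was called for 0 of the 5 and for 5.37% of all tested genes.

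**Figure D5:**
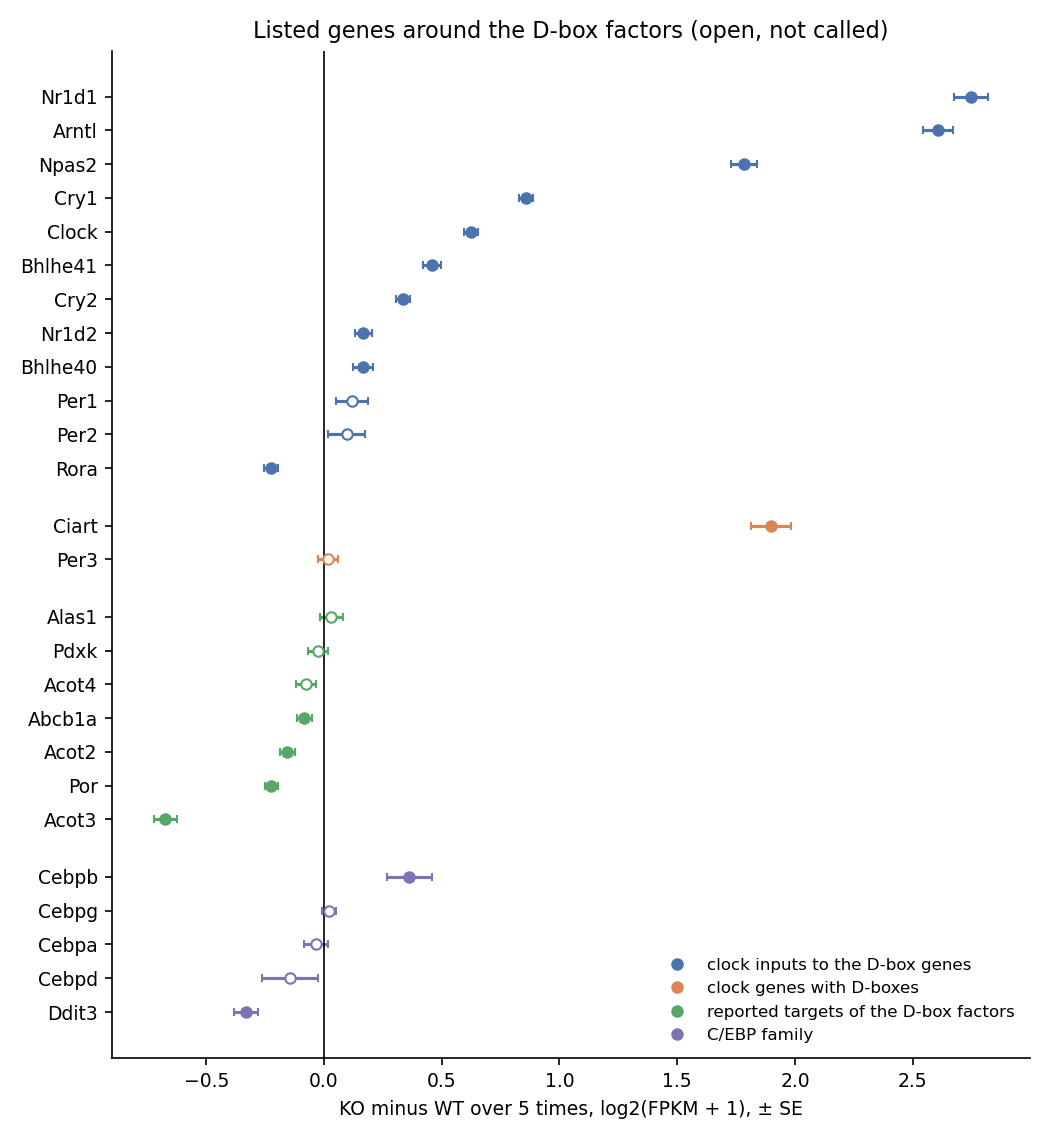
Mean KO-labelled minus WT-labelled difference over 5 times in log2(FPKM + 1), with ± SE, for the tested genes of the 4 lists, filled where the limma adjusted p was under 0.05. Genes on both clock lists are drawn once, under the clock inputs. The points run from -0.67 for Acot3 to 2.75 for Nr1d1.

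The genes whose pattern was most like each D-box gene were found from Pearson's r of the group means of log2(FPKM + 1) over the 11 groups, which share libraries, depth and the genotype difference, so r is a description. For Dbp these were Tcap (r = 0.98), Tspan4 (0.96), Hacl1 (0.96), Slc25a14 (0.96) and Bhlhe41 (0.94), and the most opposite were Gfod1 (-0.92) and Noa1 (-0.91). Slc25a14 lay near the filter, with means of 0.82 FPKM at ZT2 and 1.43 FPKM at ZT10 in WT-labelled hearts. Tcap, which encodes the sarcomere protein telethonin, averaged 567 FPKM at ZT2 and 2075 FPKM at ZT10 in WT-labelled hearts, against 2303 and 2663 FPKM in KO-labelled hearts. Ogfod2 (r = 0.95), the clock repressor Cry2 (0.95), Abcg2 (0.92), Clec9a (0.91) and Sqstm1 (0.91) were nearest to Tef, and Fnip2 and Lzic (both -0.91) were farthest. Clec9a was also near the filter, with 0.88 and 1.45 FPKM at those times in WT-labelled hearts. Cry2 averaged 7.32 FPKM at ZT2 and 14.4 FPKM at ZT10 in WT-labelled hearts, against 11.9 and 17.1 FPKM in KO-labelled hearts.

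Nearest to Hlf were Tulp4, Lipa and Timm29 (each r = 0.97), Ccpg1os (0.96) and Rnf181 (0.95), with Btbd6 (-0.96) and Adsl (-0.95) opposite. Lipa, the lysosomal acid lipase gene, averaged 11.7 and 15.1 FPKM at ZT2 and ZT10 in WT-labelled hearts and 16.7 and 17.8 FPKM in KO-labelled hearts. Nearest to Nfil3 were Ppp4r1 (r = 0.96), Fam222a, Phc2 and Dyrk2 (each 0.95) and Ypel2 (0.94), with Cln6 (-0.96) and Trpm4 (-0.95) opposite. Fam222a was low, with 1.39 FPKM at ZT2 and 0.36 FPKM at ZT10 in WT-labelled hearts. Ypel2 averaged 12.6 FPKM at ZT2 and 2.96 FPKM at ZT10 in WT-labelled hearts, against 17.9 and 11.2 FPKM in KO-labelled hearts.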

How the data were processed

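RNA-sequencing libraries of heart were analysed from 33 deposited tables, 3 for each of 11 groups. The authors deposited FPKM values for 18762 NCBI Gene IDs in them. That unit was inferred from the values: they are not whole, and counts divided by them give 1 length per gene. Reads were placed on mm10, per the submitters' processing notes. Which aligner, read counter and gene models they used is not given in the sources used here. The record points, as KO at ZT22, to 3 tables in which the authors deposited expected counts. Per the file headers their columns name KO ZT10 libraries, so they served only to recover gene lengths, and 10.5 to 10.8% of them were not whole. Headers and record disagree on the replicate numbers of WT ZT14, where the record was used. A repeat of another library's values, 1 column, was left out. Symbols for 18623 IDs came from RefSeq.

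Tests used limma 3.58.1 in R 4.3.3 on log2(FPKM + 1), its prior variance following mean level, and were adjusted by Benjamini-Hochberg over the 11790 genes that passed the filter. The 11 group means gave the contrasts, F tests and interaction, and a 24 h cosine per genotype gave the rhythms. The code was tested on simulated data. No 2 libraries held identical values. Depth was estimated from 42 to 54 low genes in each library, and 58.7 to 81.0% of these came within 0.15 of a whole number of reads, and the read numbers given are estimates from it.

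The 4 genes and the lists were chosen with earlier results of these data known. From the list of clock inputs 1 gene is not reported here, and the counts are without it. Named beside them are the 5 genes most like and 2 most opposite to each, and from each list the called genes, up to 4 with the largest and 2 with the smallest mean effect. Genes that did not pass, Rorb and Fgf21 were named outside that rule, after their values were seen, as were the cell type markers named. The alternatives were another pseudocount, filter and scaling, the replicate block, the rhythm fit without WT ZT22, each library left out and, added after seeing the data, the interaction on FPKM without the log.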

Additional observations from a re-analysis of the deposited data

Results flagged for a closer look

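For all 4 D-box genes the genotype difference changed over the day by the limma interaction test, which was called for 5.37% of tested genes. The 5 log2 differences spanned 3.47 for Dbp, 0.83 for Tef, 0.56 for Hlf and 2.14 for Nfil3. In FPKM without the log, an alternative added after seeing the data, the Hlf interaction did not pass (limma adjusted p = 0.203). For 3 of the 4 genes the fitted cosine also differed between the genotypes, as it did for 1.09% of tested genes. The amplitude difference, KO minus WT, was -1.41 for Dbp, -0.30 for Tef and -0.90 for Nfil3. The calls of Tef and Nfil3 were narrow (both limma adjusted p = 0.0435) and were lost in 22 and 25 of 33 fits that each left out a library.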

How the results depend on the processing

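Of 48 results on the D-box genes, 40 kept their direction and their side of the threshold under every alternative tried, as did 1825 of 1888 single re-computations. The mean effects of all 4 genes and the interactions of Dbp, Tef and Nfil3 were among them. With no filter on low values, the Hlf rhythm in KO-labelled hearts (amplitude 0.22, limma adjusted p = 0.0562) and the rhythm differences of Tef (-0.30, 0.0797) and Nfil3 (-0.90, 0.0821) lost their calls. Under quantile normalization the Tef difference at ZT6 (0.18, limma adjusted p = 0.0528) and its rhythm difference (-0.29, 0.064) lost theirs, and its uncalled difference at ZT10 turned to -0.0055 (0.966). The cause was not tested. The log2 ratio of Dbp to Nfil3 at WT ZT10 was 4.82 with a pseudocount of 0.1, against 4.55 with a pseudocount of 1. Without WT ZT22, 79 genes in place of 128 had differing cosines. In FPKM without the log, added after seeing the data, the Hlf interaction spanned 2.66 (limma adjusted p = 0.203).

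Same-numbered replicates did not deviate together (median correlation 0.0059 over 165 pairs, 12 above 0.1, and 11 of 33 libraries correlated best with their own number). The numbers thus gave no sign of pairing the samples, which does not exclude it. With the replicate block the rhythm differences of Tef (-0.30, limma adjusted p = 0.0564) and Nfil3 (-0.90, 0.0616) lost their calls.

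With each library left out in turn, the Tef difference ranged from 0.14 to 0.27 at ZT6 and from 0.16 to 0.25 at ZT18. Time of day for Nfil3 in KO-labelled hearts ranged from 0.26 to 0.37 and the Hlf amplitude there from 0.19 to 0.27. The rhythm difference of Tef ranged from -0.32 to -0.24 and that of Nfil3 from -1.01 to -0.84. The interaction was called for 411 to 964 genes and the rhythm difference for 80 to 214, the latter with 214 without WT ZT2 replicate 1, 85 without KO ZT2 replicate 2 and 80, 85 and 82 without KO ZT18 replicates 1, 2 and 3. Counting error is largest for Nfil3 at ZT10 in WT-labelled hearts, where the lowest value rests on about 100 reads.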
